A study of Mus musculus with 15 samples.

Results

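The genes described here are 8 genes linked to the response of T cells to TCR engagement: the transcription factor genes Egr1, Egr2 and Egr3, the nuclear receptor genes Nr4a1, Nr4a2 and Nr4a3, and Nab1 and Nab2, which encode corepressors of the Egr proteins. They were taken as a list by gene symbol, 8 of the 48795 genes quantified. No cutoff on a measured value was applied, but the list was chosen with earlier results of these data known. RNAseq was performed on iNKT cells, T cells with a semi-invariant TCR that recognises lipids on CD1d, sorted from untreated wild type C57BL/6 mice at 6 weeks of age. Sorted cells bound the CD1d tetramer and expressed TCRβ, and B220, CD11b, CD11c and CD8 were used to exclude other cells. There were 4 libraries each from thymus, spleen and mesenteric lymph node (mLN) and 3 from inguinal lymph node (iLN), numbered as replicates 1 to 4 with no iLN replicate 1 analysed here. Replicates 3 and 4 are labelled as the First batch and replicates 1 and 2 as the Second. The labels call the replicates biological and give the libraries of 1 number a shared unit, WT1 to WT4, without saying whether a unit is a single mouse or a pool. All comparisons are between tissues, and every group shares the strain, the age and the sort.

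Egr and Nr4a genes are immediate early genes, transcribed directly by pre-existing factors once a signal arrives. Downstream of the TCR, the Ras and ERK pathway acts on SRF and its Elk partners at Egr promoters, and calcium signals act on MEF2 and NFAT factors at Nr4a promoters. Egr proteins are zinc finger factors, and the products of Nab1 and Nab2 bind Egr proteins and repress their targets. Nr4a proteins are orphan nuclear receptors that can bind DNA as monomers. In developing iNKT cells, Egr2 is known to act upstream of Zbtb16, which encodes PLZF, and Nr4a1, which encodes Nur77, is widely used as a reporter of recent TCR signals.

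Promoter windows of RefSeq (GRCm38.p6, 250 bases before to 50 after a start site) were found for 6 of the 8 genes, 10 windows in all, 5 of them for Egr2. The 250 bases before a start site are shown for Nr4a1, which had the largest called difference between tissues, and for Egr2, where motifs of the factors that act downstream of the TCR lie close together. Both stretches are on the + strand, chr15:101266596-101266845 for Nr4a1 and chr10:67537619-67537868 for Egr2, and neither overlaps an annotated exon of its gene. The Nr4a1 start site lies inside the annotated gene, since longer transcripts begin upstream of it. Capitals mark matches to a site bound by Egr proteins in Nr4a1 and, in Egr2, to a CArG box, the core of a serum response element, followed by a cyclic AMP response element (CRE) that lacks 1 end letter, read here as the reverse complement of TGACGTC.
Nr4a1: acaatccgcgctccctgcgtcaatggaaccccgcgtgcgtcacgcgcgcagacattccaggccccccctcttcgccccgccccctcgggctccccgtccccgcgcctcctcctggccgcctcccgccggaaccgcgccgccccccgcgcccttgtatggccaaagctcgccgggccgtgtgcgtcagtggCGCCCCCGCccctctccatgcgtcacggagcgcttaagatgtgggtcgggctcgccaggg
Egr2: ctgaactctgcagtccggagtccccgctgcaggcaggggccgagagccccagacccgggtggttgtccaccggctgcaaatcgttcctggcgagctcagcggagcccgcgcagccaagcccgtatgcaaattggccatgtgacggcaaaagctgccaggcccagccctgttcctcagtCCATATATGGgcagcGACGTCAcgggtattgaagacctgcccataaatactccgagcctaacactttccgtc

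Both strands were searched for GCGTGGGCG or GCGGGGGCG (Egr site), TGACGTCA (CRE), TGACGTC (the CRE without its last letter, so that it overlaps every full CRE), AAAGGTCA (the monomer site of Nr4a proteins) and the CArG box. Of all 32851 promoter windows of this length, 3.47% held an Egr site, 1.79% the full CRE, 3.21% the shortened CRE, 1.63% a CArG box and 1.51% the Nr4a site. The Nr4a1 window held 1 Egr site and the Nab1 window held 3. A CArG box was found in 4 of the 5 Egr2 windows, which overlap or neighbour each other, and the shortened CRE in 3 of them and in the Nr4a3 window. The full CRE and the Nr4a site were found in none of the 10 windows. A match describes these letters only and is not evidence that a factor binds there.

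Libraries held between 1152702 and 8670570 expected counts, with thymus replicate 2 the shallowest and every other library at 4080550 or more. Levels of 1 gene across libraries are given as CPM, the counts of a gene relative to the total of its library, scaled with TMM factors. The 16 iNKT and T cell markers summed to between 4393 and 7160 CPM over all libraries, and each of them was above 0 in every tissue. Among markers of cells that the sort should remove, red cell markers summed to between 24.0 and 117 CPM in spleen and to at most 14.7 in the other tissues. B cell markers, 10 in all, summed to between 208 and 431 CPM in spleen and between 85.3 and 258 elsewhere, with Pax5 and Ebf1 at 0 in thymus. The 9 immature thymocyte markers summed to between 28.1 and 112 CPM in thymus and between 92.0 and 257 elsewhere, but Rag1, which rearranges TCR genes in immature thymocytes, was at 19.2, 22.1, 5.51 and 5.88 CPM in thymus replicates 1 to 4 and at 0.150 or less in every other library. The paper describes thymic iNKT cells that include early developmental stages, and whether these held the Rag1 counts was not tested. Themis, of the same list, was called lower in thymus than in spleen, by 3.08 on the log2 scale (edgeR adjusted p = 5.57e-07). Themis alone made up most of the list's sum outside thymus, at 103.9 to 228.4 CPM in spleen, 172.5 to 246.4 in mLN and 85.69 to 138.7 in iLN. The 14 myeloid and dendritic cell markers summed to between 57.3 and 97.0 CPM in thymus and 12.9 to 88.3 elsewhere, with Fcer1g higher in thymus than in spleen by 3.59 on the log2 scale (edgeR adjusted p = 3.69e-05) and Lyz2 lower, at 0.735 CPM or less in thymus and 2.64 to 43.1 in spleen (edgeR adjusted p = 0.00997). Fcer1g alone accounted for 46.55 to 77.91 CPM of the thymus sum. The 10 stroma and endothelium markers summed to 67.9 to 102 CPM in mLN, 66.2 to 77.2 in iLN, 34.3 to 57.1 in spleen and 29.4 to 58.7 in thymus, with Col3a1, Krt5, Lyve1 and Pdpn at 0 in every tissue. The part of these cells in the levels described here was not tested. In bulk RNA, fewer cells that express a gene and less RNA per cell cannot be told apart, and this holds also for iNKT subsets, whose proportions can differ between tissues. Klrb1c (NK1.1, expressed by NKT1 cells) was lower in mLN and iLN than in thymus, with log2 fold changes of -1.48 and -1.56 (edgeR adjusted p = 1.23e-05 and 3.21e-05). It was also lower in mLN and iLN than in spleen, with log2 fold changes of -0.86 and -0.94 (edgeR adjusted p = 0.00660 and 0.00305).

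Of the 8 genes, 7 had counts in every library and passed the filter on low counts; Nr4a2 did not and was not tested. A gene was called where the edgeR quasi-likelihood test, with tissue and batch in the model, gave a Benjamini-Hochberg adjusted p under 0.01 over all 13600 genes tested and a fold change over 1.5. Egr1 was called higher in mLN than in spleen, where 0.654% of all genes were called, and in iLN than in spleen, where 1.55% were. Nr4a1 was called higher in mLN than in thymus, where 1.6% of all genes were called, and in iLN than in thymus, where 1.5% were. Between thymus and spleen none of the 7 was called by edgeR, against 1.32% of all genes. Of the 7, 5 had an unadjusted edgeR p under 0.05, which 10.6% of all genes did. DESeq2 called 3 of the 7 there, Egr1, Egr2 and Egr3, but it called more genes in all, 407 against 179 by edgeR. Between iLN and mLN, where 0.471% of all genes were called, neither tool called any of the 7. There 1 of them, Egr3, had an unadjusted edgeR p under 0.05, which 13.8% of all genes did. In the test over the 4 tissues together Egr1 and Nr4a1 were called, 2 of 7 against 3.38% of all genes. The plot of log2 fold changes shows these results together.

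**Figure D1:**
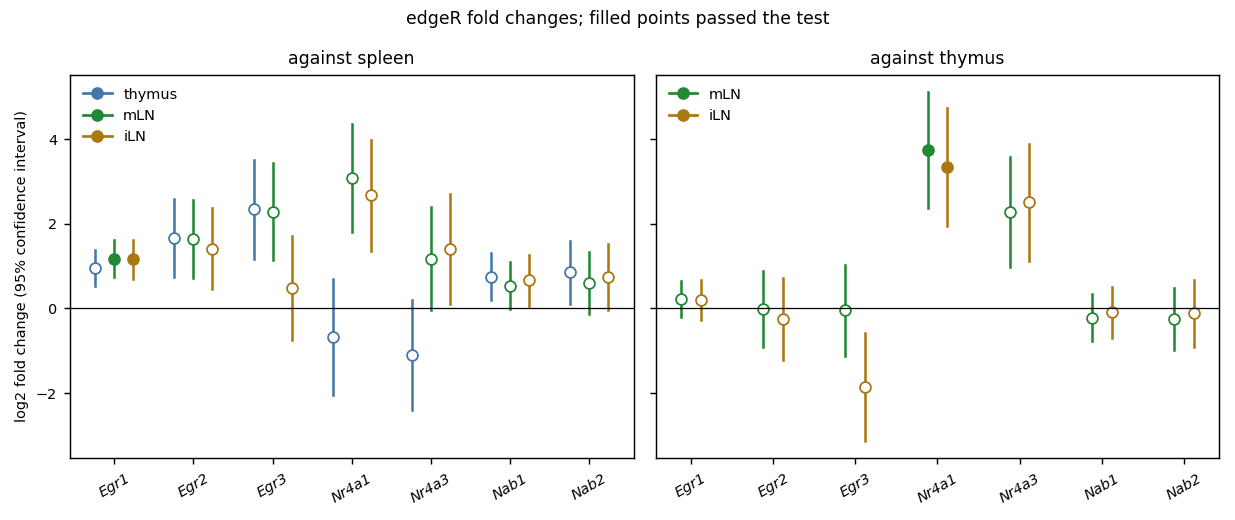
Log2 fold changes of the 7 tested genes against spleen (left) and against thymus (right) from the edgeR model, with 95% confidence intervals as lines; colours mark the tissue compared and filled points passed the test. The filled points are Egr1 in mLN and iLN against spleen and Nr4a1 in mLN and iLN against thymus, and in mLN and iLN all 7 points lie above 0 against spleen.

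All 7 tested genes had a fitted fold change above 0 in mLN against spleen and in iLN against spleen, with medians over the 7 of 1.17 and 1.16 on the log2 scale, where 50.03% and 50.56% of all genes lay above 0. In thymus against spleen 5 of 7 lay above 0, with a median of 0.85; Nr4a1 and Nr4a3 were the exceptions. These comparisons share the 4 spleen libraries, so that they are not independent of each other. The ranges of CPM did not overlap between thymus and spleen for 4 of the 7 genes, against 8.56% of all tested genes, and between spleen and mLN for 3 of the 7, against 6.2%. For thymus and iLN this held for 2 of the 7 (13.4% of all genes), for spleen and iLN for 2 (12.9%), for thymus and mLN for 1 (8.05%) and for mLN and iLN for 1 (8.48%).

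**Figure D2:**
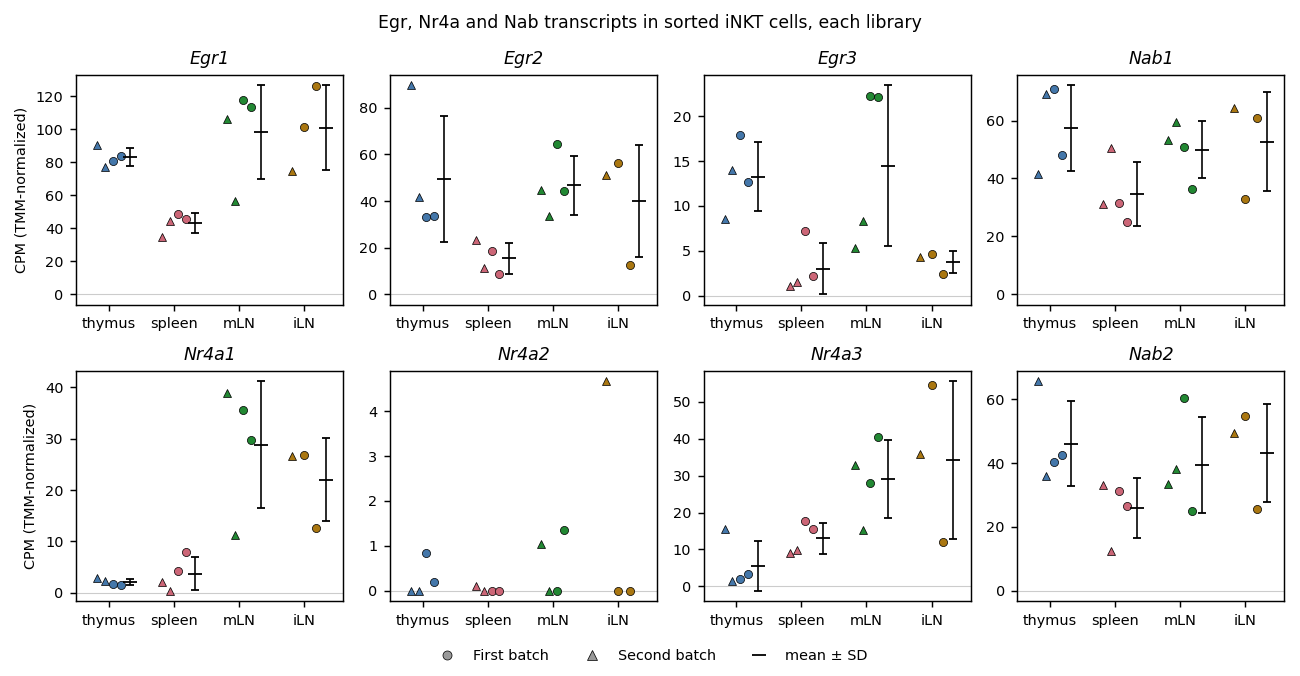
TMM-normalized CPM of the 8 genes in each library by tissue (circles First batch, triangles Second batch), with mean ± SD as a dash and bar except where 2 or more libraries are at 0. Spleen holds the lowest Egr1 libraries, at 34.7 to 48.6 CPM, and Nr4a1 separates the lymph nodes, at 11.3 to 38.9 CPM, from thymus and spleen, at 0.451 to 7.93 CPM.

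Egr1 (ENSMUSG00000038418, GRCm38 chr18:34859823-34864984, + strand), the founding member of the Egr family, was lower in spleen than in every library of the other tissues. It was measured at 34.7, 44.5, 48.6 and 45.4 CPM in spleen replicates 1 to 4, and at 90.3, 77.2, 80.7 and 84.1 CPM in thymus replicates 1 to 4. In mLN the values were 106, 56.4, 118 and 114 CPM, and in iLN replicates 2 to 4 they were 75.0, 101.3 and 127 CPM. The 4 spleen libraries thus lay below all others, the thymus libraries were close to each other, and mLN replicate 2 was the lowest lymph node library. Mean levels (± SD) were 43.3 ± 6.01 CPM in 4 spleen, 83.1 ± 5.60 in 4 thymus, 98.5 ± 28.4 in 4 mLN and 100.96 ± 25.8 in 3 iLN libraries. The log2 fold change against spleen was 1.17 ± 0.21 (SE) in mLN (edgeR adjusted p = 0.00538) and 1.16 ± 0.22 in iLN (edgeR adjusted p = 0.00484).

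Thymus against spleen gave a similar Egr1 fold change, 0.96 ± 0.21 (SE) on the log2 scale, with an edgeR adjusted p of 0.0129 that missed the threshold. Between lymph nodes and thymus the 95% confidence intervals of the Egr1 log2 fold change ran from -0.21 to 0.65 for mLN and from -0.27 to 0.67 for iLN. Within the First batch alone the difference of mean log2(CPM + 1) against spleen was 1.28 in mLN and 1.25 in iLN, and within the Second it was 0.96 and 0.92, the last from a single iLN library. The mLN call was lost without any 1 of the 4 spleen libraries or of mLN replicates 1, 3 and 4 (highest edgeR adjusted p = 0.0306), and the iLN call without spleen replicates 1, 3 or 4 or any of the 3 iLN libraries (highest edgeR adjusted p = 0.0286). The fold change itself stayed between 1 and 1.34 on the log2 scale with any library left out.

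Egr2 (ENSMUSG00000037868, GRCm38 chr10:67535475-67542188, + strand) had its lowest levels in spleen too, with a wider spread between libraries. It was measured at 23.3, 11.1, 18.4 and 8.75 CPM in spleen replicates 1 to 4, against 89.9, 41.9, 33.1 and 33.4 CPM in thymus and 44.6, 33.7, 64.3 and 44.1 CPM in mLN. In iLN replicates 2 to 4 the values were 51.3, 56.4 and 12.3 CPM. Every thymus and mLN library thus exceeded every spleen library, whereas iLN replicate 4 lay within the spleen range. Log2 fold changes against spleen were 1.66 ± 0.44 (SE) in thymus, 1.64 ± 0.44 in mLN and 1.42 ± 0.46 in iLN, with edgeR adjusted p-values of 0.0495, 0.0761 and 0.103, so that none was called. DESeq2 called the first and the second (adjusted p = 0.00495 and 0.00793). Without thymus replicate 1, whose 89.9 CPM was more than any other library's, the thymus fold change was 1.25 on the log2 scale.

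Egr3 (ENSMUSG00000033730, GRCm38 chr14:70077203-70082614, + strand), which acts redundantly with Egr2 in T cells, was the Egr gene whose 2 lymph nodes differed most. Its level was 8.52, 14.0, 17.9 and 12.7 CPM in thymus replicates 1 to 4 and 5.32, 8.27, 22.3 and 22.2 CPM in mLN replicates 1 to 4. In spleen it was 1.09, 1.503, 7.23 and 2.24 CPM, and in iLN replicates 2 to 4 it was 4.31, 4.61 and 2.40 CPM. All 3 iLN libraries lay under every thymus and mLN library and within the spleen range, while in mLN the First batch libraries lay well above the Second. These levels rest on few reads, with between 10 and 29 expected counts per spleen library and between 14 and 24 per iLN library. The log2 fold change against spleen was 2.34 ± 0.56 (SE) in thymus (edgeR adjusted p = 0.0270), 2.29 ± 0.55 in mLN (edgeR adjusted p = 0.0433) and 0.48 ± 0.59 in iLN (edgeR adjusted p = 0.765), and none was called. DESeq2 called Egr3 in thymus and in mLN against spleen (adjusted p = 0.000476 and 0.000945). In iLN, Egr3 differed from thymus by -1.85 ± 0.61 (SE) and from mLN by -1.80 ± 0.60 on the log2 scale, without a call (edgeR adjusted p = 0.112 and 0.158).

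Egr4 (ENSMUSG00000071341), the remaining Egr gene, had a count of 0 in all 15 libraries. At 3 counts, the limit that a count of 0 allows, a library would give between 0.296 and 2.21 CPM depending on its depth.

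Nr4a1 (ENSMUSG00000023034, GRCm38 chr15:101254269-101274795, + strand) separated lymph nodes from thymus and spleen. It was measured at 38.9, 11.3, 35.6 and 29.7 CPM in mLN replicates 1 to 4 and at 26.6, 26.8 and 12.7 CPM in iLN replicates 2 to 4. Thymus libraries held 2.84, 2.21, 1.65 and 1.52 CPM, and spleen libraries 2.17, 0.451, 4.24 and 7.93 CPM. Each of the 7 lymph node libraries exceeded each of the 8 thymus and spleen libraries, and the spleen values spread more widely than those of thymus. Mean levels (± SD) were 28.9 ± 12.3 CPM in the 4 mLN, 22.0 ± 8.10 in the 3 iLN, 3.70 ± 3.22 in the 4 spleen and 2.05 ± 0.602 in the 4 thymus libraries, a ratio of means of 14.1 for mLN over thymus and 10.7 for iLN over thymus. The log2 fold change against thymus was 3.75 ± 0.65 (SE) in mLN (edgeR adjusted p = 0.00202) and 3.34 ± 0.67 in iLN (edgeR adjusted p = 0.00692).

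Against spleen, the Nr4a1 log2 fold change was 3.08 ± 0.61 (SE) in mLN and 2.67 ± 0.63 in iLN, and both missed the threshold (edgeR adjusted p = 0.0113 and 0.0191), while DESeq2 called both (adjusted p = 1.68e-05 and 0.000733). The 2 lymph nodes differed by -0.41 on the log2 scale for iLN against mLN, with a 95% confidence interval from -1.66 to 0.84. Within batches, the difference of mean log2(CPM + 1) from thymus was 3.70 in the First and 2.66 in the Second for mLN, and 2.92 and 2.97 for iLN. From spleen it was 2.29 in the First and 3.37 in the Second for mLN, and 1.51 and 3.68 for iLN. For thymus against spleen it changed sign, from -1.4 in the First to 0.709 in the Second. The Second batch values of iLN rest on a single iLN library. The 4 thymus libraries held only 40 counts of Nr4a1 in all, against 703 in the 4 mLN libraries. The mLN call was lost without thymus replicate 3 or 4 (edgeR adjusted p at most 0.0158), and the iLN call was lost without any 1 of the 4 thymus libraries, spleen replicate 3, mLN replicates 3 or 4, or iLN replicates 2 or 3 (highest edgeR adjusted p = 0.0611). The Nr4a1 fold changes against thymus stayed between 2.84 and 4.20 on the log2 scale in all of these. Beside RNA, the study used Nur77 reporter mice, whose iNKT cells had high GFP in both lymph nodes and were mostly negative in spleen and thymus. It also reports the reporter higher in lymph nodes than in spleen within each iNKT subset. That is a reporter protein read by flow cytometry, a measure unlike the RNA levels given here.

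In the study's methods lymph nodes were digested with enzymes while warm, whereas thymus and spleen were dispersed mechanically. Tissue and cell preparation therefore cannot be told apart in any RNA comparison of lymph nodes with these tissues here. AP-1 genes, immediate early genes that respond to stress and handling as well as to the TCR, are therefore given beside Nr4a1. Fos was measured at 9.98, 16.5, 4.99 and 4.62 CPM in mLN replicates 1 to 4 and 6.28, 23.3 and 4.96 CPM in iLN, and it was at 0 in 3 of 4 thymus and 3 of 4 spleen libraries. Jun lay between 4.05 and 41.4 CPM in mLN, between 2.57 and 12.4 in iLN, between 2.74 and 6.71 in spleen and at 0.617 or less in thymus. Against thymus, the log2 fold change in mLN was 6.26 for Fos and 4.93 for Jun (edgeR adjusted p = 0.00430 and 0.00178) and in iLN 7.23 for Fos and 4.26 for Jun (edgeR adjusted p = 0.00245 and 0.00717). Among the 4 mLN libraries, replicate 2 had the lowest Nr4a1 and the highest Fos, Jun and Junb. Among the 3 iLN libraries, replicate 3 had the highest Nr4a1, Fos and Junb, and replicate 4 had the lowest Nr4a1, Fos and Jun. Heat shock and chaperone genes, 11 tested of 14, gave no edgeR call in any of the 6 comparisons. DESeq2 called Hsp90ab1 in the 3 comparisons with spleen. Between 0 and 5 of the 11 had an unadjusted edgeR p under 0.05 in a comparison, which 10.6 to 16.5% of all genes did. The 5 were in mLN against spleen (12.2% of all genes), where 10 of the 11 lay above 0. The median log2 fold change of the list was 0.45 there, against 0.0003 for all genes. It was 0.36 in thymus and 0.10 in iLN against spleen, and 0.19 in mLN and -0.19 in iLN against thymus. CPM of the list summed to 3206 to 4315 in mLN, 2535 to 4022 in iLN, 3004 to 3718 in thymus and 2192 to 3226 in spleen.

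**Figure D3:**
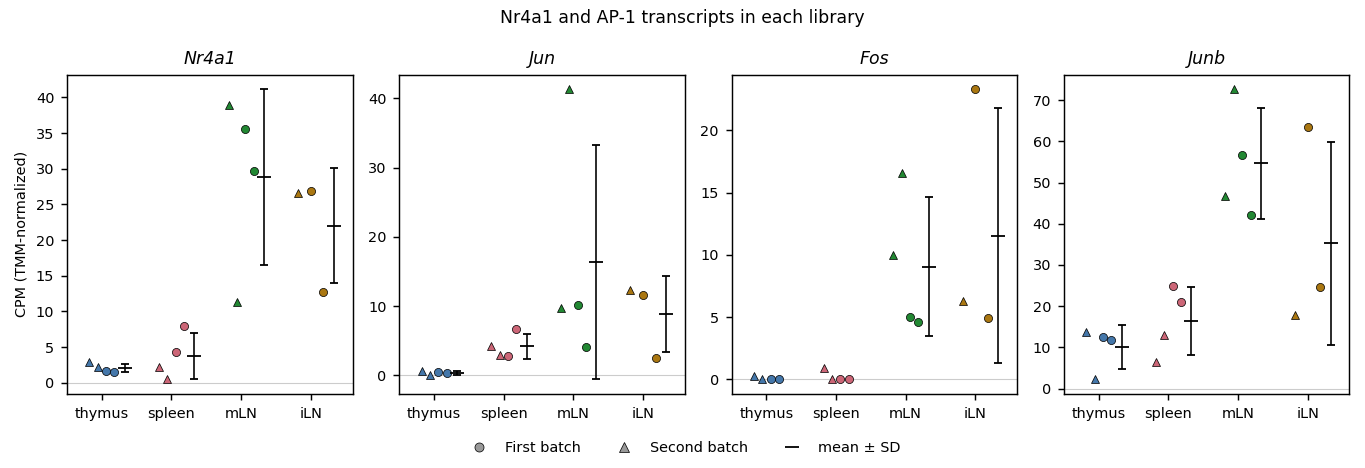
TMM-normalized CPM of Nr4a1 and of the AP-1 genes Jun, Fos and Junb in each library by tissue (circles First batch, triangles Second batch), with mean ± SD except where 2 or more libraries are at 0. Fos lies at 4.62 CPM or more in every lymph node library and at 0.888 or less elsewhere, and mLN replicate 2 (the second mLN point) is lowest for Nr4a1 and highest for the other genes within mLN.

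Nr4a3 (ENSMUSG00000028341, GRCm38 chr4:48045153-48086447, + strand), which encodes NOR1, had its lowest levels in thymus apart from a single library. In thymus replicates 1 to 4 it was measured at 15.4, 1.47, 1.93 and 3.23 CPM, and in spleen at 9.08, 9.77, 17.7 and 15.5 CPM. In mLN it was 32.9, 15.2, 28.1 and 40.5 CPM, and in iLN replicates 2 to 4 it was 35.9, 54.7 and 12.1 CPM. Thymus replicate 1 stood within the spleen range, and the other thymus libraries lay under every library of the other tissues. The log2 fold change against thymus was 2.28 ± 0.62 (SE) in mLN and 2.51 ± 0.66 in iLN, without a call (edgeR adjusted p = 0.0565 and 0.0416). Without thymus replicate 1 both were called, at 3.74 in mLN and 3.94 in iLN (edgeR adjusted p = 0.000961 and 0.000908). Against spleen, Nr4a3 gave log2 fold changes of 1.17 ± 0.58 (SE) in mLN, 1.403 ± 0.62 in iLN and -1.10 ± 0.62 in thymus (edgeR adjusted p = 0.431, 0.258 and 0.596).

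Nr4a2 (ENSMUSG00000026826, GRCm38 chr2:57106830-57124003, - strand), which encodes NURR1, was at 0 in 9 of the 15 libraries and held 46 counts in all. Of these, 26 were in iLN replicate 2, at 4.67 CPM, while iLN replicates 3 and 4 had none. In mLN replicates 1 and 4 it was measured at 1.04 and 1.35 CPM, or 8 and 7 counts, and in mLN replicates 2 and 3 at 0. Thymus replicates 3 and 4 held 3 and 1 counts and spleen replicate 1 held 1, with no count in the other thymus and spleen libraries.

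Nab1 (ENSMUSG00000002881, GRCm38 chr1:52457294-52500679, - strand) and Nab2 (ENSMUSG00000025402, GRCm38 chr10:127660918-127668568, - strand) gave fold changes under 1 on the log2 scale in every comparison, and neither was called in any of the 6 comparisons by edgeR or DESeq2. Against spleen, unadjusted edgeR p-values under 0.05 were found for Nab1 in thymus and iLN and for Nab2 in thymus. Of all genes, 10.6% had such a p-value in thymus and 16.4% in iLN against spleen. Nab1 was measured at 41.5, 69.1, 71.1 and 48 CPM in thymus and at 31.1, 50.6, 31.6 and 25.0 CPM in spleen. Its values were 53.3, 59.5, 50.8 and 36.4 CPM in mLN and 64.4, 33.1 and 60.7 CPM in iLN replicates 2 to 4. For Nab1 the ranges of all 4 tissues thus overlapped. Nab2 was at 65.7, 36, 40.2 and 42.7 CPM in thymus and 33.1, 12.3, 31.2 and 26.6 CPM in spleen, so that these did not overlap, while its ranges of 25.0 to 60.5 CPM in mLN and 25.7 to 54.7 in iLN overlapped with both. The log2 fold changes against spleen were 0.75 ± 0.27 (SE) in thymus, 0.54 ± 0.27 in mLN and 0.66 ± 0.29 in iLN for Nab1 (edgeR adjusted p = 0.222, 0.433 and 0.250). For Nab2 they were 0.85 ± 0.35 (SE), 0.61 ± 0.35 and 0.74 ± 0.37 in the same order (edgeR adjusted p = 0.338, 0.531 and 0.337). All 6 of these values lay above 0, as for Egr1 and Egr2, with fold changes smaller than those of Egr1 or Egr2 in the same tissue.

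Levels of different genes were compared per length, as TPM, which divides counts by transcript length before scaling. Egr2 and Egr1 held the highest mean levels in thymus, at 56.2 ± 34.3 and 34.7 ± 6.97 TPM (SD, n = 4), and in mLN, at 56.9 ± 20.2 and 43.6 ± 12.3 TPM (SD, n = 4), and these neighbours did not differ beyond the spread between libraries in either tissue. In iLN the order was Egr1, Nab1, Egr2, Nab2, with Egr1 at 45.2 ± 17.7 TPM and Nab1 at 44.2 ± 28.4 TPM (SD, n = 3). In spleen Nab1, Egr2 and Egr1 had means of 26.5 ± 22.7, 20.003 ± 23.5 and 18.2 ± 2.83 TPM (SD, n = 4), which did not differ beyond their spread. Nr4a3 and Nr4a1 stood near each other in mLN, at 18.1 ± 4.61 and 16.3 ± 6.62 TPM (SD, n = 4), and Egr3 just below, at 15.5 ± 9.58 TPM. In thymus Egr3 instead lay well above both, at 13.3 ± 4.06 TPM (SD, n = 4) against 2.64 ± 2.86 for Nr4a3 and 1.15 ± 0.485 for Nr4a1. Nr4a2 had the lowest mean TPM of the 8 genes in each tissue.

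TPM of some of these genes moved with the length that RSEM assigned to the gene in each library, which depends on the mix of transcripts it estimated. This effective length ran from 663 bases (spleen replicate 1) to 2046 bases (iLN replicate 3) for Egr2, from 1381 to 4867 for Nr4a3 and from 1224 to 3522 for Nab1, with a longest over shortest ratio of 3.09, 3.52 and 2.88. For Egr1, Egr3 and Nr4a1 that ratio was 1.05 or less. Spleen replicate 1 held 23.3 CPM of Egr2, near the 18.4 CPM of spleen replicate 3, but 55.2 TPM against 9.61 TPM there. The separation of spleen from thymus and mLN in Egr2 thus holds for CPM and not for TPM.

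**Figure D4:**
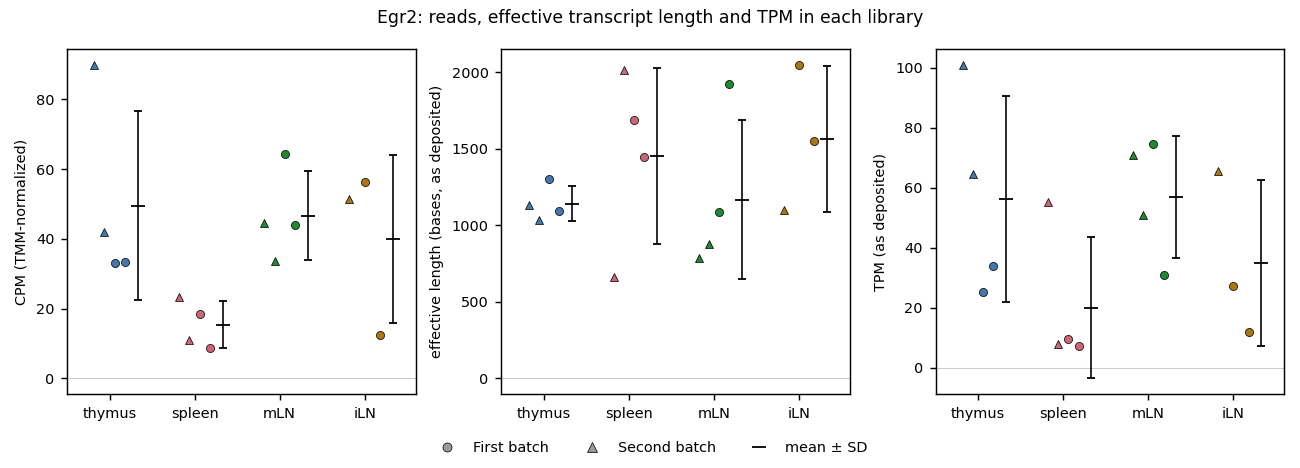
Egr2 in each library by tissue, as TMM-normalized CPM (left), deposited effective length in bases (middle) and deposited TPM (right), with mean ± SD (circles First batch, triangles Second batch). Spleen replicate 1 has the shortest effective length, 663 bases, and stands at 55.2 TPM, above the 7.39 to 9.61 TPM of the other spleen libraries, while its CPM of 23.3 is the highest of spleen, against 8.75 to 18.4 in the others.

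Summed per family, the 3 Egr genes held 104 ± 39.2 TPM (mean ± SD) in thymus, 40.8 ± 23.1 in spleen, 116 ± 26.2 in mLN and 83.9 ± 21.1 in iLN, over 4, 4, 4 and 3 libraries. The 3 Nr4a genes held 3.90 ± 3.02, 9.36 ± 5.96, 34.7 ± 9.61 and 32.4 ± 17.8 TPM in the same tissues. The Nr4a genes thus made up 3.48 ± 1.53% of the summed Egr and Nr4a TPM in thymus (SD, n = 4; 1.60 to 5.33%), the lowest of the 4 tissues. That share was 20.4 ± 13.9% in the 4 spleen libraries (8.40 to 38.5%), 23.0 ± 4.48% in the 4 mLN libraries (18.8 to 28.5%) and 27.3 ± 14.5% in the 3 iLN libraries (14.4 to 42.99%). Each thymus library was below every library of the other tissues, and spleen, mLN and iLN overlapped. Thymus and mLN thus overlapped in summed Egr level while their summed Nr4a levels did not overlap, and spleen had a lower mean than mLN and iLN in both families. In spleen the Second batch libraries gave the lower shares, 8.40 and 10.8%, and the First the higher, 24.1 and 38.5%. These sums hold Egr2 and Nr4a3, whose assigned lengths varied between libraries, down to 663 bases for Egr2 in spleen replicate 1. With 1 length per gene, the median over libraries, and TMM-normalized CPM, a setting chosen after seeing the data, the Nr4a share was 3.62 ± 1.99% in thymus (SD, n = 4; 2.13 to 6.53%) and 13.2 to 29.5% in spleen, 17.5 to 28.8% in mLN and 16.5 to 29.2% in iLN, with thymus again below every other library.

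**Figure D5:**
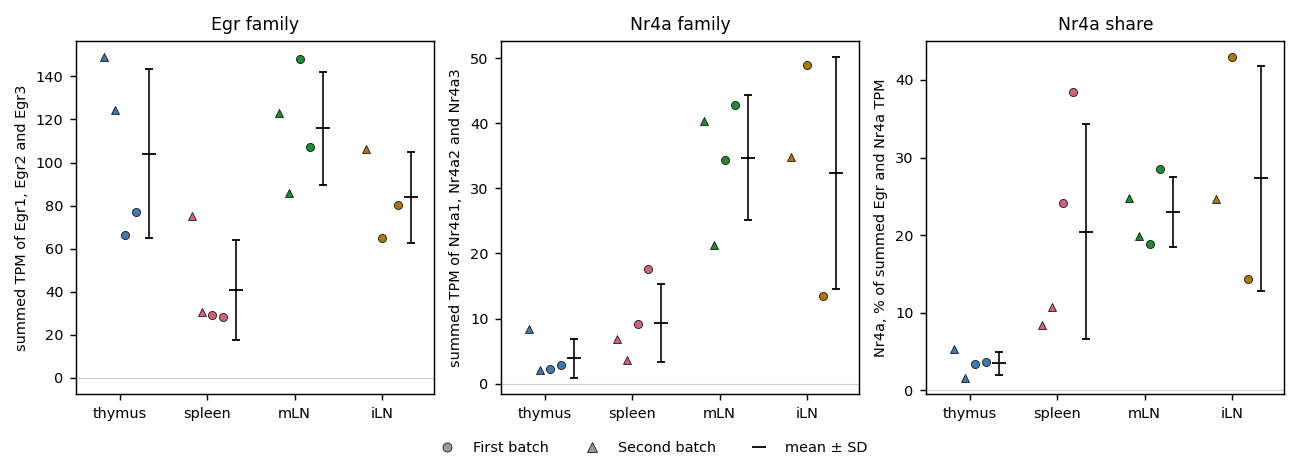
Summed TPM of the Egr genes (left), of the Nr4a genes (middle) and the Nr4a percentage of both (right) in each library by tissue (circles First batch, triangles Second batch), with mean ± SD. The 4 thymus libraries lie at 1.60 to 5.33% on the right, under all other libraries, and at 66.2 to 149 TPM on the left, within or near the mLN range of 85.7 to 148 TPM.

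Libraries within a tissue differed in several of these genes together. Among the 3 iLN libraries, replicate 4 was lowest in 5 of the 7 tested genes (Egr2, Egr3, Nr4a1, Nr4a3 and Nab2) and highest in Egr1, and replicate 3 was highest in the same 5. Among the 4 mLN libraries, replicate 2 was lowest in Egr1, Egr2, Nr4a1 and Nr4a3. In thymus, replicate 1 was highest in 5 of the 7 genes and lowest in Egr3 and Nab1.

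Of 23 genes of the signalling pathway upstream of Egr and Nr4a transcription, all tested, edgeR called 1 in each of 4 comparisons and none in the other two, where between 0.471 and 1.6% of all genes were called. Between 3 and 6 of the 23 had an unadjusted p under 0.05 in each comparison, which 10.6 to 16.5% of all genes did, and the median log2 fold change lay between -0.03 and 0.14 over the 6 comparisons, against -0.01 to 0.03 for all genes. Rasgrp1, which activates Ras downstream of the TCR, was lower in thymus than in spleen, by 1.03 on the log2 scale (edgeR adjusted p = 0.000203), and higher than in thymus in mLN by 0.74 and in iLN by 1.05 (edgeR adjusted p = 0.00389 and 0.000341). Its level was 205 ± 41.3 CPM in thymus (SD, n = 4) and 423 ± 112 in spleen (SD, n = 4). Elk4, a partner of SRF, was higher in mLN than in spleen, by 0.72 (edgeR adjusted p = 0.00464). EdgeR called none of the remaining genes. Over the 6 comparisons it gave 4 calls and DESeq2 gave 10, the latter also for Crem in thymus and in mLN against spleen, Mef2c in thymus against spleen, and Elk3 in iLN against each of the other tissues. Srf, Elk1, Mapk3, Mef2d and Nfatc2 were called by neither tool. These genes, other than Rasgrp1 and Elk4, were named after their values were seen.

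Of 31 other immediate early genes 26 were tested. EdgeR gave 13 calls over the 6 comparisons, all higher in the first-named tissue, and DESeq2 gave 29. Per comparison, edgeR called 0.471 to 1.6% of all genes, and DESeq2 called 266 to 588 genes. Between 4 and 13 of the 26 had an unadjusted edgeR p under 0.05 in each comparison, which 10.6 to 16.5% of all genes did. Jun differed by -3.18 on the log2 scale in thymus against spleen, which edgeR did not call (adjusted p = 0.0443) and DESeq2 did, with Dusp2, Fosl2, Gadd45b, Myc and Nfkbia. Against thymus, by edgeR, 5 were called in mLN (Fos, Fosb, Jun, Junb and Btg1) and 3 in iLN (Fos, Fosb and Jun), with median log2 fold changes over the list of 0.82 and 0.46, where all genes had 0.03 in both. Against spleen, Dusp1 was called in mLN (log2 fold change 2.53, edgeR adjusted p = 0.00956), Zfp36l1, Fos and Zfp36 in iLN, and Myc in thymus (log2 fold change 1.34, edgeR adjusted p = 0.00710); the list medians were 0.59, 0.54 and 0.03. Fosb, Btg1, Dusp1, Dusp2, Fosl2, Gadd45b, Nfkbia, Zfp36 and Myc were named after their values were seen. Junb was measured at 54.6 ± 13.5 CPM in mLN (SD, n = 4) and 10.1 ± 5.30 in thymus (SD, n = 4), and the log2 fold change between them was 2.43 ± 0.46 (SE), with an edgeR adjusted p of 0.00389. Zfp36l1, whose product promotes mRNA decay, was higher in iLN than in spleen by 1.29 on the log2 scale (edgeR adjusted p = 0.00278). Between the 2 lymph nodes edgeR called none of the 26, with 4 at an unadjusted p under 0.05, and DESeq2 called Zfp36.

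Genes reported downstream of Egr2 and Egr3 in T cells, 20 tested of 24, gave 3 edgeR calls and 13 DESeq2 calls over the 6 comparisons. Per comparison, edgeR called 0.471 to 1.6% of all genes, and DESeq2 called 266 to 588 genes. Between 4 and 10 of the 20 had an unadjusted edgeR p under 0.05 in each comparison, which 10.6 to 16.5% of all genes did. The list medians lay between -0.06 and 0.21 on the log2 scale. Tnfrsf9, which encodes the costimulatory receptor 4-1BB, was higher in mLN than in thymus, by 2.26 on the log2 scale (edgeR adjusted p = 0.000367), with 41.6 to 92.7 CPM in mLN against 12.4 to 18.4 in thymus. Fasl, which encodes Fas ligand, was lower in iLN than in spleen and thymus, by 1.45 and 1.59 (edgeR adjusted p = 0.000971 and 0.000388). EdgeR called no other gene of this list, while DESeq2 also called Zbtb16 in iLN against thymus, Id3 in thymus and in mLN against spleen, Ndrg1 and Tnfrsf9 in thymus against spleen, Tnfsf11 in mLN against spleen, Socs3 in iLN against spleen and against mLN, and Dgka and Fasl in iLN against mLN. Id3, Ndrg1, Tnfsf11, Socs3 and Dgka were named after their values were seen.

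Genes reported downstream of Nr4a factors, 24 tested of 25, gave 19 edgeR calls and 34 DESeq2 calls over the 6 comparisons. Per comparison, edgeR called 0.471 to 1.6% of all genes, and DESeq2 called 266 to 588 genes. Between 8 and 15 of the 24 had an unadjusted edgeR p under 0.05 in each comparison, which 10.6 to 16.5% of all genes did. By edgeR, in mLN against thymus 6 were called higher (Il2ra, Runx1, Tnfrsf9, S1pr1, Ctla4 and Ikzf4) and Bcl2 lower, and in iLN against thymus 4 were higher (Il2ra, S1pr1, Runx1 and Ikzf2) and Bcl2 lower, with list medians of 0.16 and 0.93 on the log2 scale. Il2ra, which encodes CD25, was measured at 14.9, 5.15, 8.26 and 11.6 CPM in thymus, 86.1 to 116 CPM in mLN and 192 to 314 CPM in iLN. Its log2 fold change against thymus was 3.26 in mLN and 4.49 in iLN (edgeR adjusted p = 2.58e-07 and 2.77e-08), and it was lower in thymus than in spleen as well, by 3.58 (edgeR adjusted p = 1.12e-07). Il2ra thus had spleen on the side of the lymph nodes, at 103 to 155 CPM, where Nr4a1 had spleen on the side of thymus. S1pr1, a receptor for exit from lymphoid tissue, was higher than in thymus by 1.21 in mLN and 2.19 in iLN (edgeR adjusted p = 0.00420 and 3.33e-05), and Runx1 by 1.13 and 1.15 (edgeR adjusted p = 7.32e-05 and 0.000160). In thymus against spleen Tox and Bcl2 were called higher and Il2ra and Runx1 lower; Tox was also higher in mLN than in spleen, and in iLN against spleen S1pr1 was higher and Tnfrsf18 lower. Ctla4, Ikzf4, Ikzf2, Bcl2, Tox and Tnfrsf18 were named after their values were seen. Of 10 genes for partners of Egr and Nr4a proteins, such as Rxra, 9 were tested and none was called by edgeR in any of the 6 comparisons, with 1 or 2 at an unadjusted p under 0.05 in each, and DESeq2 called Chd4 in iLN against spleen.

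The genes whose levels followed those of each tested gene most closely over the 15 libraries are given as a description, by Pearson's r of log2(CPM + 1) among 10145 tested genes that averaged 5 CPM or more. The points share tissue, batch and depth, so that a high r follows from any common difference between tissues. For Egr1 the nearest were Nap1l1 and Add3 (r = 0.915 and 0.914) and Tbc1d4 (r = 0.894), and for Egr2 the gene ENSMUSG00000078441 (r = 0.839), Rgs10 (r = 0.821) and Abca1 (r = 0.818). Rgs10 (r = 0.873) was also near Egr3, after Rpl4 (r = 0.948) and Impdh2 (r = 0.905). For Nr4a1 they were Naa50 (r = 0.897), Tnfsf11, which encodes RANKL (r = 0.879), and Tcf7, which encodes the T cell factor TCF1 (r = 0.862). For Nr4a3 they were Irf4 (r = 0.914), a factor induced by TCR signals, Cpm (r = 0.846) and Rnf144a (r = 0.836). Nab2 was near ENSMUSG00000078441 (r = 0.859), Fkbp1a (r = 0.818) and Egr2 itself (r = 0.801), the sole case where 1 of the 8 genes was among the 3 nearest of another. Among those nearest to Nab1 were Pik3cg (r = 0.782) and Peli1 (r = 0.767).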

How the data were processed

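RNAseq of sorted iNKT cells was analysed for 15 libraries. The authors trimmed paired-end reads with Cutadapt 1.7.1 and quantified genes with RSEM 1.2.31 and Bowtie2 2.2.9 on GRCm38, per the submitters' processing notes and the study's methods. The expected counts that the authors deposited share fragments that align to several genes between them. TPM values deposited by the authors are expected counts over effective length, scaled to 1 sum per library. The deposited FPKM values were not used. Effective lengths were read from the deposited files only to describe TPM.

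Expected counts were rounded and tested with edgeR 4.0.16 in R 4.3.3 (filterByExpr, TMM, robust quasi-likelihood, factors tissue and batch, all 15 libraries), with Benjamini-Hochberg adjustment over 13600 genes; a call needed an adjusted p under 0.01 and a fold change over 1.5, or the adjusted p alone for the 4 tissues together. CPM used TMM factors between 0.755 and 1.18. The design follows the study's, with edgeR in place of its DESeq2, which was an alternative. On simulated data for mLN against spleen (12947 genes tested), calls reached 73% of 100 genes given a log2 fold change of 2 and 22% of 100 given 1, plus 1 unchanged gene. The changed genes were drawn only from those above a minimum mean CPM. Before the change, simulated levels were equal over tissues and batches. Simulated counts held the dispersion of the fit, but not the extra spread of each gene that the quasi-likelihood test estimates. These rates therefore do not cover genes with low counts, genes that vary widely between replicates, or an effect of batch. Depth ran from 1152702 to 8670570 counts. The labels call the replicates biological, and the study counts individual mice unless it specifies otherwise, but neither says whether a library is a single mouse or a pool; p-values measure the spread between these libraries.

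Alternative settings were RLE size factors, DESeq2 1.42.0, all genes kept regardless of counts, a model without batch, a replicate block in place of batch, an adjusted p under 0.05 with no fold limit, removal of genes with rRNA reads, only the 2 tissues compared, each library left out, limma 3.58.1 on log2(TPM + 1), each batch alone, and the order of genes by mean log2 TPM; 1 length per gene in the family shares was added after seeing the data. Named genes were the 8 listed genes and Egr4, up to 4 called genes per list by smallest adjusted p, and the 3 genes most like each tested gene. The members and lists were chosen with earlier results of these data known. Symbols were matched for 48349 of 48795 gene IDs. Sequences are from RefSeq (GRCm38.p6), gene positions from GENCODE (GRCm38). Values of some genes are not reported here.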

Additional observations from a re-analysis of the deposited data

Results flagged for a closer look

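In 3 of the 24 combinations of a gene and a tissue with 4 libraries, a single library stood far from the others, by the gap to its nearest neighbour over the whole range (Dixon's 95% limit, which chance passes in about 1 of 20 groups). Egr2 was at 89.9 CPM in thymus replicate 1 and at 33.1 to 41.9 CPM in the other thymus libraries. Nr4a3 was at 15.4 CPM in thymus replicate 1 and at 1.47 to 3.23 CPM in the other thymus libraries. Nr4a2 was at 0.0987 CPM in spleen replicate 1, a single count, and at 0 in the other spleen libraries. Where the others are all at 0 any count passes this limit, so that the Nr4a2 flag holds no information.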

How the results depend on the processing

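Of the 7 tested genes, DESeq2 called 3 in thymus, 4 in mLN and 2 in iLN against spleen, 2 in mLN and 2 in iLN against thymus, and 4 over the 4 tissues, where edgeR called 0, 1, 1, 1, 1 and 2. Without a filter on low counts these were 2, 3, 3, 2, 2 and 5. At an adjusted p under 0.05 with no fold limit, 3, 3 and 2 were called against spleen in thymus, mLN and iLN and 2 in iLN against thymus. Without the batch covariate 0 were called in mLN and in iLN against spleen and 1 over the 4 tissues, and with only the 2 tissues compared 1 in thymus, 0 in mLN and 0 in iLN against spleen; in both the Egr1 calls were lost. With limma on log2(TPM + 1) the Egr1 calls in mLN and iLN against spleen (limma adjusted p = 0.125 and 0.0753) and the Nr4a1 call in iLN against thymus (limma adjusted p = 0.0138) were lost, and the Nr4a1 call in mLN against thymus was kept. With 1 library left out the counts ran over 0 to 1, 0 to 2 and 0 to 1 against spleen in thymus, mLN and iLN, 0 to 2 in mLN and 0 to 1 in iLN against thymus, and 1 to 3 over the 4 tissues, and stayed 0 for iLN against mLN. The cause of these differences was not tested. Fits with a library left out or with only the 2 tissues compared also hold fewer libraries.

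Over all genes, calls in thymus, mLN and iLN against spleen, mLN and iLN against thymus, iLN against mLN and over the 4 tissues were 407, 266, 588, 427, 499, 307 and 1077 with DESeq2, 393, 273, 544, 435, 480, 279 and 1134 without the filter, and 353, 186, 530, 388, 468, 183 and 894 at an adjusted p under 0.05, against 179, 89, 211, 217, 204, 64 and 459. Without the batch covariate they were 29 in mLN and 129 in iLN against spleen, 123 in iLN against thymus and 40 in iLN against mLN. With only the 2 tissues compared they were 313, 17 and 86 against spleen and 20 in iLN against mLN. With 1 library left out they ran from 114 to 222, 24 to 99, 108 to 267, 125 to 235, 104 to 236, 44 to 66 and 327 to 493.

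Egr3 in iLN against spleen changed sign without iLN replicate 2, to -0.22 on the log2 scale (-0.22 to 1.09 with any library left out), and its within-batch values were -0.24 in the First batch and 1.22 in the Second. RLE normalization and removal of rRNA genes changed no call of the 7 genes. With mean log2 TPM in place of mean TPM, 3 genes took another place in the spleen order and none in the other tissues.

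The labels give libraries of 1 number a shared unit (WT1 to WT4) without saying what it is. Deviations from the tissue mean of same-numbered libraries correlated at 0.122 on average over 21 pairs and at 0.00151 in the lowest, under the limit of 0.1 for every pair that was set for treating them as paired, against 0.107 for other numbers of the same batch. From the tissue and batch mean, same-numbered pairs correlated at 0.00312 to 0.0633 and other numbers of the same batch at -0.0633 to -0.00312, which mirror each other because a batch holds at most 2 libraries of a tissue. The mirroring does not fix which set is positive, and here every same-numbered pair was. Whether the numbers are a true pairing was thus not settled, and the main model treats the libraries as unpaired. With a replicate block in place of batch, 1 of the 7 genes was called in mLN and in iLN against spleen and in mLN and in iLN against thymus, as without it, and 70 and 175 of all genes against spleen in mLN and iLN. Low counts limit Nr4a2 and Egr4, Nr4a1 in thymus and Egr3 in spleen and iLN.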
